A study of Homo sapiens with 12 samples.

Results

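Interferon-stimulated genes were followed in the ovarian cancer cell lines CAOV3 and TOV21G, with and without exposure to ascites, the fluid that gathers in the abdomen of patients with ovarian cancer. The set was a list of 39 symbols, from transcription factors of the interferon pathway to antiviral effectors, matched to the Ensembl identifiers of the deposited tables. Of these, 38 were among the 19251 genes listed for each library, and EPSTI1 was not analysed here. Expression had been measured by RNA sequencing in 12 libraries, 3 for each combination of line and treatment, to learn how the transcriptome responds to ascites. Per the labels, both lines are of ovarian epithelial origin and labelled wild type. CAOV3 is labelled high grade serous and TOV21G clear cell, so each histology is represented by 1 line, and what separates the lines cannot be told apart from what separates the histologies. The control groups of both lines had no treatment. The ascites groups of both lines had 10% ascites (150 µL) in their medium for 16 h. All 4 groups grew in DMEM with 10% fetal bovine serum, and a well received 250000 cells in 1.5 mL. The labels name no vehicle for the untreated wells and do not say how many patients gave ascites. They also do not state that the 3 libraries of a group came from separate cultures, so the p-values measure the spread between these libraries, which may be technical.

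Interferons are secreted cytokines that act through paired cell surface receptors and the kinases JAK1, TYK2 and JAK2. Type I and type III interferons lead to a complex with STAT2 and IRF9 that binds the interferon-stimulated response element (ISRE), whereas interferon gamma acts on genes through the gamma-activated sequence (GAS). The induced genes encode proteins that sense viral nucleic acid, block entry or translation, tag proteins with the ubiquitin-like ISG15 and feed back on the pathway, and many carcinoma lines express part of this set without added interferon.

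Short stretches of promoter show the elements through which these genes are known to be driven, first for members that passed the test for ascites in CAOV3 and then for 3 that did not. They are given 5′ to 3′ along the gene's own strand, from RefSeq windows on GRCh38.p14 that run from 250 bases before to 50 bases after the annotated start, with the match in capitals. The IRF1 match is to the GAS letters TTCNNNGAA and the others are to the ISRE letters GAAANNGAAA, in either orientation. PARP9 and DTX3L start 38 bases apart on opposite strands and share a single ISRE match, which is printed on both.
IRF1, chr5:132490879-132490907, minus strand: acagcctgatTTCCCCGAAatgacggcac
IFITM1, chr11:314024-314053, plus strand: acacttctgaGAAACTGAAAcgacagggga
IFITM3, chr11:320876-320905, minus strand: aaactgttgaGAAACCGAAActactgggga
ISG15, chr1:1013380-1013409, plus strand: tcgggaaaggGAAACCGAAActgaagccaa
DTX3L, chr3:122564322-122564351, plus strand: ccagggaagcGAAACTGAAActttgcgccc
PARP9, chr3:122564322-122564351, minus strand: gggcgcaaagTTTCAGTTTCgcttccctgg
IFIT1, chr10:89392497-89392526, plus strand: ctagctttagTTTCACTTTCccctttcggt
OAS3, chr12:112938321-112938350, plus strand: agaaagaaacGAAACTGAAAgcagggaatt
PARP14, chr3:122680800-122680829, plus strand: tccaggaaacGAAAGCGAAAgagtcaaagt

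A promoter window was found for 31 of the 38 listed members, and none for IRF7, IFIT2, IFITM2, USP18, OAS2, OASL and TRIM22. The ISRE letters, searched on both strands, stood in a window of 23 of the 31 members (74.2%), against 4.38% of the 27305 genes with a window of 300 bases. The GAS letters stood in 10 members (32.3%), against 9.38% of all genes. HERC6, SAMD9L, STAT2 and XAF1 held neither. Among members called higher in CAOV3 with ascites, 5 of 6 with a window held the ISRE letters and 2 of 6 the GAS letters. Among the other members the shares were 18 of 25 (72%) and 8 of 25 (32%). The IFITM1 window held a GAS match that overlaps the printed ISRE match. These matches describe letters only and show no binding.

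The libraries held 26697609 to 34491304 reads in listed genes. Values are normalised read counts, that is, reads divided by a size factor per library, and n = 3 libraries per group throughout. Of 5 epithelial markers, KRT8 and KRT18 were abundant in every library, at 66099 to 83756 and 47355 to 61160 in CAOV3. In TOV21G they were lower, at 4585 to 5671 and 5187 to 6105. The others were lower in TOV21G as well. KRT19 was 15438 to 17088 in CAOV3 and 252.6 to 282.9 in TOV21G. EPCAM was 691.6 to 838.9 and 342.1 to 422.7, and CDH1 was 265.8 to 455.1 and 6.29 to 17.34. The serous markers PAX8 (18.16 to 25.56) and WT1 (2.151 to 8.185) were low in CAOV3 and higher in TOV21G (6797 to 9342 and 219.1 to 239.4), which goes against the serous label of CAOV3. Of 10 leukocyte markers 3 were listed (CD14, LYZ and ITGAM), with a summed value of 122.6 to 143.5 in CAOV3 controls and 103.9 to 135 with ascites. In TOV21G the sums were 41.94 to 63.95 and 61.94 to 65.43, and LYZ was 0 in all 6 libraries. The other 7 leukocyte markers were not analysed here. In bulk RNA, fewer cells of a type and less RNA per cell cannot be told apart.

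The members spanned the whole range of expression. By the mean over a line's 6 libraries, CAOV3 had 20 well measured members (at least 100), 12 low members (10 to under 100) and 6 near 0 (under 10), namely OAS2, MX1, TRIM22, IFI27, IFI44 and XAF1. TOV21G had 27 well measured members, 9 low ones and 2 near 0, IFI44 and IFI44L. In both lines 18 were well measured. A gene was tested when it reached 10 in at least 3 of the 12 libraries, which kept 17616 genes and 37 members, and left out IFI44 (2.046 to 9.843 over all libraries). Of the 37, 31 met this minimum within each line. OAS2, MX1, TRIM22, IFI27 and XAF1 met it through TOV21G alone and IFI44L through CAOV3 alone. Several members overlap an annotated gene on the opposite strand, among them IFIT1, IFIT2 and IFIT3 (LIPA), OAS1, OAS2 and OAS3 (AC004551.1) and TRIM22 (TRIM5), and without strand information their reads cannot be told apart there.

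With ascites, 8 of the 37 tested members rose in CAOV3 and none fell, and no member passed the test in TOV21G. The 8 were IRF1, IFITM1, IFITM2, IFITM3, ISG15, PARP9, DTX3L and OAS2, the last at only a few reads. Members not called in either line included IFIT1, IFIT2, IFIT3, IFIT5, OAS1, OAS3, OASL, MX1, USP18 and IFI6. In CAOV3, MX1 was near 0 and IFIT1, IFIT2, OASL and IFI6 were low, which limits what their lack of a call can show. Calls are at an adjusted p under 0.05 in limma with Benjamini-Hochberg adjustment over all 17616 genes, and differences are in log2(value + 1), which understates changes of low genes.

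In CAOV3, 1.73% of all tested genes were called, 0.636% higher and 1.10% lower, so the members' 8 of 37 higher lay above that background. The gene lists were chosen with earlier results of these data known. Their counts beside those of all genes, here and below, therefore describe the lists and do not test them. By class, 6 of the 20 well measured members were called, against 0.739% of all well measured genes called higher, with 1 of the 12 low members (0.443%) and 1 of the 5 tested members near 0 (0.460%). At an unadjusted p under 0.05, 12 members were higher (5.73% of all genes) and 0 lower (7.22%). EdgeR and DESeq2 on the recovered reads each called 7 members higher and 0 lower. All 3 ascites libraries lay above all 3 controls for 12 members and below them for 0, against 11.4% and 12.8% of all genes. The median log2 difference of the members was 0.16, against -0.0021 over all genes. Their summed value was 19275 to 19894 in the controls and 21885 to 22920 with ascites. Marker sums moved in CAOV3 as well. The sum of 5 epithelial markers, all listed, was 131717 to 132806 in controls and 153330 to 162634 with ascites. Nearly all of it came from KRT8, KRT18 and KRT19, with means of 73920, 53772 and 16518 over the 6 CAOV3 libraries. EPCAM (780) and CDH1 (348.2) added little. The sum of 7 listed of 8 fibroblast and mesothelial markers was 4265 to 4985 in controls and 3852 to 4062 with ascites, with LRRN4 and COL1A2 at 0 in some of these libraries. LUM made up most of it (mean 3921 over the 6 CAOV3 libraries). Both sums thus follow a few genes and do not show that a list moved as a whole. The part of either in the members' rise was not tested.

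**Figure D1:**
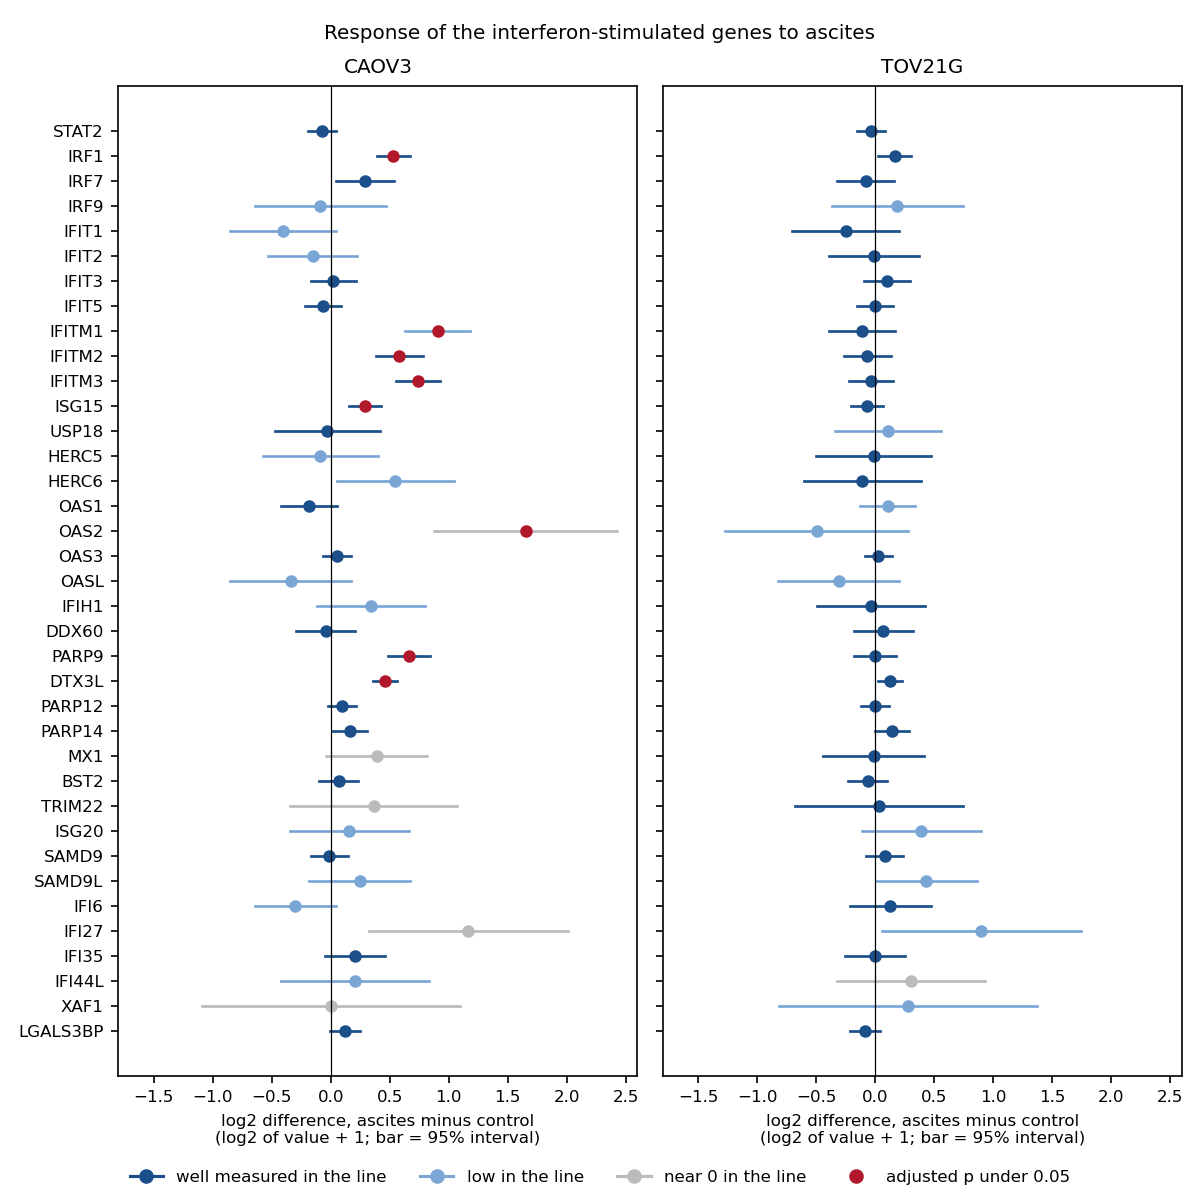
Log2 difference between ascites and control for the 37 tested interferon-stimulated genes, by role, in CAOV3 (left) and TOV21G (right). Points are limma estimates on log2(value + 1) with 95% intervals, blue or grey marks how well a gene was measured in that line, and red marks an adjusted p under 0.05; 8 genes are red in CAOV3 and 0 in TOV21G.

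Among the signalling factors, IRF1 rose with ascites in CAOV3. It encodes a transcription factor that interferons rapidly induce and that binds sites like the ISRE (GENCODE 29 on GRCh38, chr5:132481609-132490798, minus strand, with 2 annotated genes overlapping on the other strand). Its CAOV3 controls were 499.4, 548.6 and 573, and the ascites libraries 801.9, 758.7 and 779.6. The groups did not overlap, and the log2 difference was 0.53 (SE 0.07, limma adjusted p = 0.000859). The other signalling factors were not called. IRF7, which drives interferon genes, was 119.4 to 155.4 in controls and 156.4 to 177 with ascites (0.29, limma adjusted p = 0.273). STAT2 and IRF9, partners in the ISRE-binding complex, gave -0.07 and -0.09.

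All 3 members of the IFITM family rose in CAOV3. These are small membrane proteins that restrict the entry of enveloped viruses, encoded side by side on chromosome 11. IFITM3 (chr11:319669-327537, minus strand) was 1265, 1119 and 1041 in CAOV3 controls and 1955, 1860 and 1901 with ascites. Each ascites library stood well above the highest control, with a log2 difference of 0.74 (SE 0.09, limma adjusted p = 0.000581). IFITM2 (chr11:307631-315272, plus strand) went from 658.2, 616.3 and 558.2 to 949.5, 852.7 and 937.1, a log2 difference of 0.58 (SE 0.09, limma adjusted p = 0.0052). IFITM1 (chr11:313506-315272, plus strand) went from 68.09, 70.99 and 57.4 to 119.2, 108.4 and 144.3, a log2 difference of 0.91 (SE 0.13, limma adjusted p = 0.0021). The 3 genes are similar in sequence, the IFITM2 model spans IFITM1, and reads could have been shared among them, so how the rise divides among the family is uncertain. With CAOV3 fitted alone, IFITM1 was not called (limma adjusted p = 0.057).

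PARP9 and DTX3L rose together. PARP9 is an ADP-ribosyltransferase family protein and DTX3L the ubiquitin ligase that forms a complex with it. DTX3L (chr3:122564238-122575203, plus strand) was 770.6, 741.1 and 733.4 in CAOV3 controls and 1061, 993.8 and 1031 with ascites. PARP9 (chr3:122527924-122564577, minus strand) was 232.7, 223.7 and 276.1, and with ascites 398.2, 350.7 and 410.3. Neither gene's groups overlapped. The log2 difference was 0.46 for DTX3L (SE 0.05, limma adjusted p = 0.000242) and 0.66 for PARP9 (SE 0.08, limma adjusted p = 0.000859). The gene models overlap head to head on opposite strands and the strandedness of the counting is not given in the sources used here, so reads within the overlap could belong to either. With CAOV3 fitted alone, PARP9 was not called (limma adjusted p = 0.0518). Their relatives PARP14 (0.16, limma adjusted p = 0.317) and PARP12 (0.10, limma adjusted p = 0.487) were not called, although the 3 PARP14 ascites libraries (994.4 to 1039) lay above its controls (867 to 969.9).

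Of the ISG15 system, ISG15 alone was called. ISG15 is the ubiquitin-like modifier, HERC5 the ligase that attaches it and USP18 the protease that removes it and dampens receptor signalling. ISG15 (chr1:1001138-1014540, plus strand, 2 genes overlapping on the other strand) was 483.5, 478.7 and 432.5 in CAOV3 controls and 537.1, 580.7 and 587.3 with ascites. The groups did not overlap, and the log2 difference of 0.29 (SE 0.06, limma adjusted p = 0.0351) was the smallest of the called members. The call was lost when CAOV3 control replicate 1 (0.0597), 2 (0.0629) or 3 (0.132), CAOV3 ascites replicate 2 (0.134) or 3 (0.137) or TOV21G control replicate 3 (0.0613) was left out, each value a limma adjusted p. It was also lost with CAOV3 fitted alone (limma adjusted p = 0.0857). USP18 (-0.03) and HERC5 (-0.09) were not called. HERC6 (0.55, limma adjusted p = 0.328), at 6.809 to 10.76 in controls and 8.751 to 19.44 with ascites, had overlapping groups.

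OAS2, an oligoadenylate synthetase that activates RNase L, was called on very few reads (chr12:112978395-113011723, plus strand). CAOV3 controls were 1.135, 0 and 0 and the ascites libraries 3.282, 2.045 and 4.092, which are 1 read over the 3 controls and 9 reads over the 3 ascites libraries. The log2 difference was 1.65 (SE 0.36, limma adjusted p = 0.0358), and the ratio of depth-scaled reads was 8.85 with a 95% interval of 1.23 to 388 (exact binomial, counting error only). In simulated counts the same fit also called genes near 0 in a line that had not been changed, and OAS2 is such a gene in CAOV3. It was not called by edgeR (adjusted p = 0.172), with a pseudocount of 5 (limma adjusted p = 0.214) or with CAOV3 fitted alone (limma adjusted p = 0.0958). It was also lost without CAOV3 control replicate 2 (0.12) or 3 (0.137), CAOV3 ascites replicate 1 (0.113), 2 (0.0517) or 3 (0.134), TOV21G control replicate 3 (0.0584) or TOV21G ascites replicate 1 (0.0623), as limma adjusted p-values. Its better measured relatives gave 0.05 for OAS3 (1549 to 1750 in controls, 1688 to 1832 with ascites) and -0.18 for OAS1 (390.5 to 480 and 363.2 to 412.3), neither of them called. OASL, at 33.76 to 60.37 over the CAOV3 libraries, gave -0.34 and was not called.

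**Figure D2:**
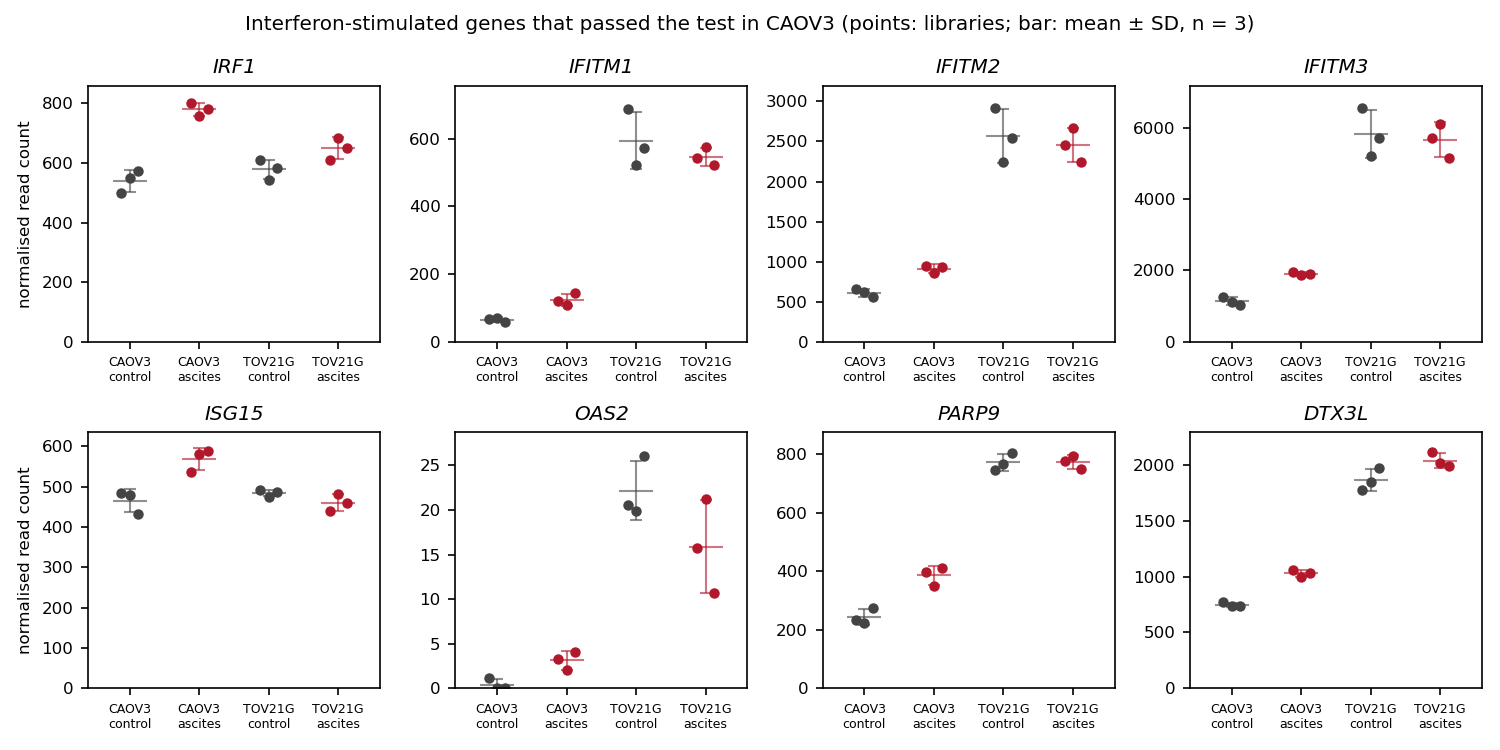
Normalised read counts of the 8 interferon-stimulated genes called for ascites in CAOV3, in each of the 12 libraries (points), with the group mean ± SD (n = 3). Axes start at 0 and differ between panels; IFITM3 lies at 1041 to 1265 in CAOV3 controls and 1860 to 1955 with ascites, while the OAS2 panel tops out at 26.02 and its CAOV3 values rest on 10 reads over 6 libraries.

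The IFIT family, cytoplasmic proteins that bind viral RNA and are among the genes most readily induced by interferon, gave no call in CAOV3. IFIT3 was 99.87, 107.6 and 105.9 in controls and 97.36, 119.6 and 102.3 with ascites, a difference of 0.02 with a 95% interval of -0.17 to 0.21. IFIT5 gave -0.07 (-0.22 to 0.09), IFIT2 -0.15 (-0.53 to 0.23) and IFIT1 -0.40 (-0.85 to 0.05). The IFIT intervals all end below the IFITM3 estimate of 0.74. Among the remaining effectors, BST2 (tetherin, which holds budding virions at the membrane) gave 0.07, and the RNA helicases DDX60 and IFIH1 gave -0.04 and 0.34. LGALS3BP, a secreted glycoprotein, gave 0.13 (limma adjusted p = 0.395). IFI27, at 2.151 to 5.675 in controls and 4.376 to 13.3 with ascites, gave 1.17 (limma adjusted p = 0.202). The 29 members not called ran from -0.40 for IFIT1 to 1.17 for IFI27. TRIM22 had 1 read over the controls and 2 over the ascites libraries, and XAF1 had none, so neither allows a ratio.

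In TOV21G, limma called 0 of the 37 members, against 0.409% of all genes, and edgeR and DESeq2 also called 0. The median log2 difference was -0.0013, beside -0.0178 over all genes. At an unadjusted p under 0.05, 4 members were higher (3.79% of all genes) and 0 lower (5.38%). These 4 were chosen after their values were seen. IRF1 was 609.2, 544.1 and 582.3 in controls and 611.2, 684.9 and 650.6 with ascites (log2 difference 0.17, limma adjusted p = 0.47). DTX3L was 1775, 1850 and 1975 against 2112, 2016 and 1986 (0.13, limma adjusted p = 0.444). IFI27 was 8.672 to 14.68 against 17.7 to 24.16 (0.90, limma adjusted p = 0.508), and SAMD9L gave 0.43 (limma adjusted p = 0.538). For IRF1, DTX3L and IFI27 the ascites libraries all lay above the controls, which was so for 4.16% of all genes. Of the other genes that rose in CAOV3, IFITM3 gave -0.04 here (95% interval -0.23 to 0.15), IFITM2 -0.07 (-0.27 to 0.14), IFITM1 -0.11 (-0.39 to 0.16), PARP9 0.00 (-0.18 to 0.18) and ISG15 -0.07 (-0.21 to 0.06). OAS2, at low values, gave -0.49 with a wide interval (-1.27 to 0.28).

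The difference between the responses of the lines, tested in the same fit as TOV21G minus CAOV3, was called for 3 of 37 members, all with the smaller response in TOV21G (0.545% of all genes were called, 0.307% in this direction). IFITM3 gave -0.78 (SE 0.12, 95% interval -1.05 to -0.52, limma adjusted p = 0.0141). IFITM1 gave -1.02 (SE 0.18, limma adjusted p = 0.026) and PARP9 gave -0.66 (SE 0.12, limma adjusted p = 0.0254). IFITM2 (-0.65, limma adjusted p = 0.051) and DTX3L (-0.33, limma adjusted p = 0.0512) fell just short, and IRF1 (-0.37, limma adjusted p = 0.14), ISG15 (-0.36, limma adjusted p = 0.12) and OAS2 (-2.15, limma adjusted p = 0.109) were not called. For IRF1, ISG15 and OAS2 a difference between the lines was therefore not shown. IFITM2 passed in edgeR (adjusted p = 0.0102) and both IFITM2 and DTX3L passed in DESeq2 (adjusted p = 8.32e-05 and 0.0132). IFITM2 also passed in limma without TOV21G control replicate 2 (0.0178) or TOV21G ascites replicate 2 (0.0357), DTX3L without TOV21G control replicate 1 (0.0375) and OAS2 without CAOV3 control replicate 1 (0.0428).

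The calls of these differences were sensitive to which libraries entered the fit, while their size changed little. IFITM3 passed in 10 of the 12 fits that left out a library and was not called without CAOV3 ascites replicate 1 (0.0567) or 3 (0.0513), as limma adjusted p-values. PARP9 was lost without CAOV3 control replicate 1 (0.0667) or 2 (0.0613), CAOV3 ascites replicate 1 (0.0891) or 3 (0.0807), TOV21G control replicate 3 (0.086) or TOV21G ascites replicate 1 (0.076) or 3 (0.0736). IFITM1 was lost without CAOV3 control replicate 1 (0.0534) or 3 (0.0686), CAOV3 ascites replicate 1 (0.0676) or 3 (0.0691), TOV21G control replicate 1 (0.0522) or 3 (0.0727), or TOV21G ascites replicate 1 (0.0778) or 3 (0.0775). Over all alternatives the log2 differences ran from -0.86 to -0.69 for IFITM3, -0.75 to -0.60 for PARP9 and -1.11 to -0.90 for IFITM1. The CAOV3 rises of IRF1, IFITM2, IFITM3 and DTX3L passed in every one of the 22 alternatives run, with limma adjusted p-values of at most 0.00755, 0.0345, 0.00585 and 0.00228 when a library was left out.

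In untreated cells most members were higher in TOV21G than in CAOV3. Of the 37 tested, 27 were higher in TOV21G, 7 were lower and 3 (IRF1, ISG15 and PARP12) were not called. The background was 40.8% of all genes higher and 41.4% lower, since the lines differed at 82.2% of genes. Because the members were chosen with earlier results known, these shares describe the list and do not test it. At a log2 difference of at least 1, 23 members were called higher (21.6% of all genes), and at -1 or below 7 were called lower (20.7%). The median member difference was 1.39, against -0.0193 over all genes. These counts include the 6 members that were tested through 1 line alone, the line in which they are high. Among the 31 members that met the minimum value in each line, 22 were higher, 6 lower and 3 not called, against 41.0% higher and 40.1% lower of the 13908 genes that did so. With a log2 difference of at least 1 or at most -1, the counts were 18 higher and 6 lower (16.8% and 14.2% of those genes). The median of the 31 was 1.32, against -0.0035. The summed value was 36989 to 40516 in TOV21G controls and 36952 to 40121 with ascites, above every CAOV3 library.

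**Figure D3:**
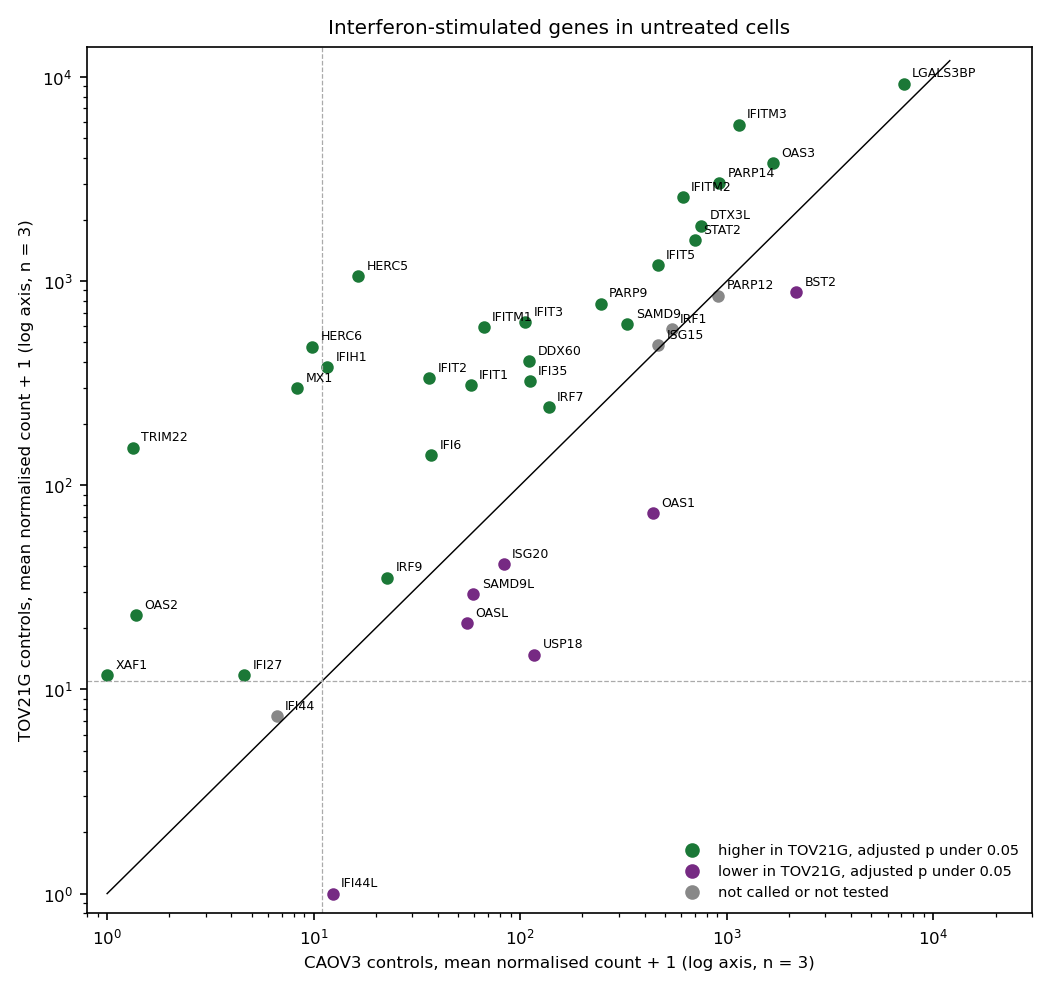
Mean normalised read count + 1 of the 38 listed interferon-stimulated genes in untreated CAOV3 (horizontal, log axis) and untreated TOV21G (vertical, log axis), n = 3 libraries each. The solid line marks equal levels, dashed lines the limit of 10 for near 0, green genes were called higher in TOV21G (27), purple lower (7), and grey were not called or not tested.

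The widest gaps among members well measured in at least 1 line were in genes near 0 (TRIM22 and MX1) or low (HERC5, HERC6 and IFIH1) in CAOV3. TRIM22, a ubiquitin ligase that restricts viral transcription, was 0, 0 and 0.9897 in CAOV3 controls (1 read in all) and 149.6, 144.7 and 160.6 in TOV21G, a log2 difference of 6.92 (SE 0.33, limma adjusted p = 1.55e-10). It was tested through TOV21G alone, and with 1 read in the CAOV3 controls this difference ran from 4.88 to 8.63 over the alternatives. The ratio of depth-scaled reads was 429, with a 95% interval of 76.6 to 17000 (exact binomial, counting error only). HERC5 was 13.62, 10.76 and 21.77 in CAOV3 and 1131, 981.3 and 1069 in TOV21G (6.07). Its neighbour HERC6 was 6.809, 10.76 and 8.907 against 497.5, 437.2 and 495.3 (5.62). MX1, a dynamin-like GTPase that traps viral nucleocapsids, was 5.675, 6.454 and 9.897 against 318.7, 314.5 and 257.5 (5.18). IFIH1, which encodes the double-stranded RNA sensor MDA5, was 12.48, 6.454 and 12.87 against 366.4, 364.8 and 402 (5.08). MX1, like TRIM22, was tested through TOV21G alone. The 5 genes were picked as the widest gaps, so the lack of overlap between the libraries of the lines adds no evidence. Whole families were higher in TOV21G: the 4 IFIT genes by 1.38 (IFIT5) to 3.22 (IFIT2) and the 3 IFITM genes by 2.07 (IFITM2) to 3.16 (IFITM1). OAS2, at 19.92 to 26.02 in TOV21G controls, and XAF1, at 0 in all 6 CAOV3 libraries and at least 10.4-fold higher in TOV21G controls against a floor of 3 reads over the group, were also called higher.

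A smaller group was higher in CAOV3. USP18 was 127.1, 105.4 and 115.8 in CAOV3 controls and 18.43, 10.48 and 12.56 in TOV21G, a log2 difference of -3.01 (SE 0.21, limma adjusted p = 8.72e-09). OAS1 was 446, 390.5 and 480 against 74.79, 63.95 and 78.06 (-2.59). Within the OAS family, OAS1 and OASL (-1.41) were lower and OAS2 (4.16) and OAS3 (1.18) higher in TOV21G. This division lies near that of all genes, of which 41.4% were lower and 40.8% higher. OAS2 was tested through TOV21G alone. BST2 was 2144, 2236 and 2116 against 977.7, 799.9 and 876.6 (-1.29). The RNA exonuclease gene ISG20 (-1.05) and SAMD9L (-1.02) were lower too, while SAMD9, next to SAMD9L in the genome, was higher (0.89). IFI44L was 10.89 to 11.83 in CAOV3 controls and 0 in the 3 TOV21G controls, at least 11.3-fold lower in TOV21G against the same floor. Of the genes grouped with ISG15, the ligase HERC5 and its neighbour HERC6 were thus higher and the protease USP18 lower in TOV21G. ISG15 itself did not separate the lines, at 483.5, 478.7 and 432.5 in CAOV3 and 491, 474.9 and 485.4 in TOV21G (0.06, limma adjusted p = 0.394). PARP12 was close as well, at 962.4, 885.3 and 868.9 against 839, 835.6 and 868.5 (-0.09, limma adjusted p = 0.118), although it passed after quantile normalization (limma adjusted p = 0.00194).

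Levels of different members were compared as normalised reads per kilobase of exon, using the union of GENCODE 29 exons. LGALS3BP (2004) and BST2 (1935) led in CAOV3 controls, ahead of IFITM3 (847), ISG15 (494) and IFITM2 (396). In TOV21G controls IFITM3 led (4323), ahead of LGALS3BP (2582), IFITM2 (1667), BST2 (791) and IFITM1 (550). IFITM3 therefore ranked 3 of 38 in CAOV3 and 1 of 38 in TOV21G on this scale. After ascites CAOV3 remained below TOV21G for IFITM3: its highest ascites library, 1955, was below the lowest TOV21G control, 5213.

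Other genes of the interferon pathway followed a similar division. These genes, too, were chosen with earlier results of these data known. A list of 81 ligands, receptors, sensors, regulators and further induced genes held 65 listed and 63 tested genes, of which 8 rose and 1 fell in CAOV3 with ascites (0.636% and 1.10% of all genes) and 0 were called in TOV21G (0.409%). At an unadjusted p under 0.05 in limma, 14 of the 63 were higher and 5 lower in CAOV3 (5.73% and 7.22% of all genes). In TOV21G 2 were higher and 1 lower (3.79% and 5.38%). SOCS3, an inhibitor of JAK kinases that cytokines of several families induce, was 139.5 to 158.9 in CAOV3 controls and 415.7 to 461.4 with ascites, a log2 difference of 1.55 (SE 0.10, limma adjusted p = 3.78e-06). APOL1, an apolipoprotein that interferon induces, was 77.45 to 115.8 and then 202.4 to 265 (1.21, limma adjusted p = 0.000257), and its relative APOL6 gave 0.58. NLRC5, a transactivator of MHC class I genes, was 68.09 to 96 and then 142.2 to 169.8 (0.83, limma adjusted p = 0.0029). PSMB8, a subunit of the immunoproteasome, was 254.2 to 263.3 and then 325.1 to 371.9 (0.43). UBE2L6, the conjugating enzyme for ISG15, was 16.13 to 27.24 and then 37.19 to 45.02 (0.97, limma adjusted p = 0.0133).

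The remaining called pathway genes changed less. PLSCR1 (0.24), a scramblase with antiviral activity, was called, as was TRIM25 (0.16), a ligase that activates the RNA sensor RIG-I, with limma adjusted p-values of 0.0434 and 0.0457. SLFN5 fell by 0.40 (limma adjusted p = 0.0379), from 277.5 to 342.4 in controls to 218.8 to 238.4 with ascites. PLSCR1 was lost in 11 of the 12 fits that left out a library (all but TOV21G ascites replicate 3), with limma adjusted p-values up to 0.173. TRIM25 was lost in 8, without any 1 of the 6 CAOV3 libraries, TOV21G control replicate 3 or TOV21G ascites replicate 1 (up to 0.181). SLFN5 was lost in 7, without CAOV3 control replicate 1 or 3, any CAOV3 ascites library, or TOV21G ascites replicate 1 or 3 (up to 0.138). With CAOV3 fitted alone NLRC5 (0.0814), UBE2L6 (0.0997), PLSCR1 (0.0748) and SLFN5 (0.119) were not called, as limma adjusted p-values, and PLSCR1 also missed in DESeq2 (adjusted p = 0.0608). TRIM25 missed with no minimum value (limma adjusted p = 0.0521) and SLFN5 after quantile normalization (limma adjusted p = 0.0549). UBE2L6 was lost without CAOV3 control replicate 3 (0.0604), CAOV3 ascites replicate 2 (0.0506) or CAOV3 ascites replicate 3 (0.062). The response differed between lines for SOCS3 (-1.73, limma adjusted p = 8.37e-05), APOL1 (-1.22, limma adjusted p = 0.0093) and NLRC5 (-1.03, limma adjusted p = 0.0177), the last lost without CAOV3 ascites replicate 3 (0.063), TOV21G control replicate 3 (0.0643) or TOV21G ascites replicate 1 (0.067). For UBE2L6 the difference was not called in the main fit but passed in edgeR (adjusted p = 0.0418) and DESeq2 (adjusted p = 0.00595). It also passed in limma without CAOV3 control replicate 1 (0.0175). The PSMB8 difference passed in limma only after quantile normalization (0.0462) or without TOV21G ascites replicate 2 (0.0449), as adjusted p-values. No gene among 9 receptors and kinases or 9 nucleic acid sensing genes was called for ascites in either line by limma. At an unadjusted p under 0.05, 1 receptor gene was higher in CAOV3, and 1 was higher and 1 lower in TOV21G. Of the sensing genes, 1 was higher and 2 were lower in CAOV3 and 0 in TOV21G. Over all genes the shares at this threshold were 5.73% higher and 7.22% lower in CAOV3, and 3.79% and 5.38% in TOV21G.

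**Figure D4:**
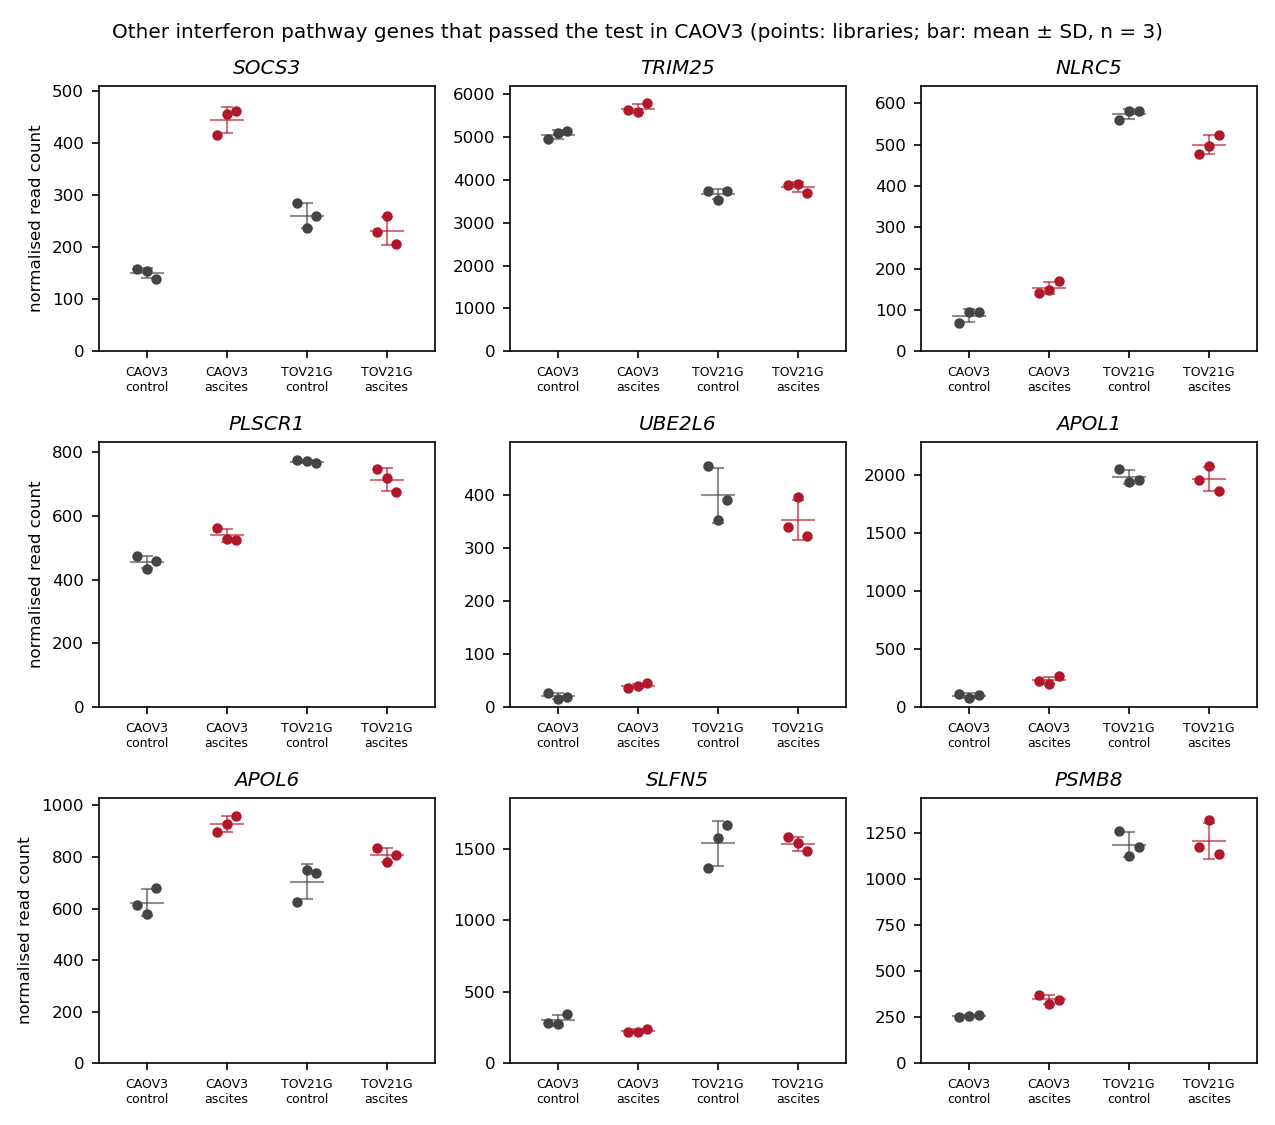
Normalised read counts of the 9 other interferon pathway genes called for ascites in CAOV3, in each of the 12 libraries (points), with the group mean ± SD (n = 3) and axes from 0. SOCS3 lies at 139.5 to 158.9 in CAOV3 controls and 415.7 to 461.4 with ascites, SLFN5 is the 1 gene that fell, and no gene was called in TOV21G.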

How the data were processed

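The members and gene lists were chosen with earlier results of these data known. Per the submitters' processing notes, Trim Galore, cutadapt, STAR, HTSeq and DESeq were used. Versions, genome build, annotation and strandedness are not given in the sources used here. The authors deposited for each library a table of 19251 genes with a signal, which proved to be read counts divided by a size factor, since scaling by 1 constant per library turned 100% of them into whole numbers within 5.33e-05 reads. The lowest maximum of any gene was 10 reads. Identifiers were named from a gene table (19087) or GENCODE 29 (136), and 28 have no name.

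The test was limma 3.58.1 (lmFit, eBayes with trend) in R 4.3.3 on log2(value + 1), over all 12 libraries with 1 mean per group. Genes had at least 10 in at least 3 libraries (17616 genes), with Benjamini-Hochberg adjustment within each contrast and two-sided p-values. It was tested on simulated counts, with changes put only into genes well measured in both lines, and it also called some unchanged genes near 0 in a line. Each replicate pair differed beyond read sampling, by chi-square per degree of freedom over genes of at least 20 reads. This was 1.81 to 8.38 for pairs of CAOV3 and 3.89 to 22.6 for pairs of TOV21G.

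All members are accounted for. Some items of the pathway and marker lists are not reported here. Library values are printed for members called for ascites or for the difference between lines, and for those with the 5 highest and 5 lowest baseline differences among members well measured in at least 1 line. Pathway genes are given as counts, with values for those called. Alternatives were edgeR 4.0.16 and DESeq2 1.42.0 on the recovered reads, pseudocounts of 0.5 and 5, no minimum or a minimum of 50, quantile normalization, library-total scaling, a replicate block, each line alone, and each library left out. Intervals of reads are 95% exact binomial (scipy 1.17.1).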

Additional observations from a re-analysis of the deposited data

Results flagged for a closer look

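The effect of ascites differed between the lines, by the interaction term of the limma fit (TOV21G minus CAOV3, log2), for 3 interferon-stimulated genes and 3 further pathway genes. The differences were -1.02 for IFITM1 (SE 0.18, adjusted p = 0.026), -0.78 for IFITM3 (SE 0.12, adjusted p = 0.0141) and -0.66 for PARP9 (SE 0.12, adjusted p = 0.0254). Among the pathway genes they were -1.73 for SOCS3 (SE 0.14, adjusted p = 8.37e-05), -1.03 for NLRC5 (SE 0.17, adjusted p = 0.0177) and -1.22 for APOL1 (SE 0.18, adjusted p = 0.0093). All 6 genes were called higher with ascites in CAOV3 and none was called in TOV21G, where their limma adjusted p-values were 0.629 or more.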

How the results depend on the processing

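Direction was followed for the members and pathway genes called for ascites or for the difference between lines. At baseline it was followed for the members with the 5 highest and 5 lowest differences. No called result among these changed direction under the alternatives run. For ascites in CAOV3, 8 members were called, 4 with CAOV3 fitted alone and 6 to 8 with a library left out. Over all genes 305 were called there, 486 with library-total scaling, 511 by edgeR, 507 by DESeq2 and 162 to 345 with a library left out. For TOV21G the members' count was 0 throughout, and the 72 calls over all genes became 114 by edgeR, 150 by DESeq2, 8 with the line alone and 24 to 137 with a library left out. The difference between lines was called for 3 members, and for 5 with a pseudocount of 5, 5 with a minimum of 50, 5 by DESeq2 and 0 to 4 with a library left out. Over all genes its 96 calls became 162 with library-total scaling, 148 by edgeR, 212 by DESeq2 and 35 to 147 with a library left out. Library-total scaling moved the share of these calls that was higher from 43.8% to 55.6%. At baseline the members' 34 calls became 32 to 34 with a library left out, and the 14480 over all genes became 13992 to 14539. The causes were not tested. OAS2 has no value at a minimum of 50, and no adjusted p in DESeq2 for ascites or for the difference between lines.

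Replicates share numbers across groups, but same-numbered CAOV3 libraries deviated with correlations of -0.020, 0.019 and 0.015. For TOV21G these were -0.113, -0.332 and 0.019, so the numbers were not taken to pair the libraries. Differently numbered libraries gave -0.054 to 0.039 in CAOV3 and -0.282 to 0.352 in TOV21G. Deviations were thus more strongly related among TOV21G libraries, and their part in the 0 calls of members there was not tested. With a replicate block, 116 genes were called for ascites in CAOV3, 13 for ascites in TOV21G and 9 for the difference, which was called for 0 members. For ascites in CAOV3 it called 6 members, and ISG15 (0.199) and OAS2 (0.133) were lost. The pathway genes PSMB8 (0.0737), UBE2L6 (0.0959), PLSCR1 (0.154), TRIM25 (0.263) and SLFN5 (0.0998) were lost there too. So was the difference between lines for NLRC5 (0.0827), all as limma adjusted p-values. For genes near 0 depth limits what can be shown: OAS2 rested on 10 reads.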

Other observations

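The interferon pathway genes outside the member list also separated the untreated lines, with 44 of 63 called higher in TOV21G and 13 lower, against 40.8% and 41.4% of all genes. Some were far lower in TOV21G than in CAOV3, and the 4 named here were chosen after their values were seen. JAK1, a kinase that type I, type II and type III interferon receptors share, was 2468 to 2783 in CAOV3 controls and 186.4 to 211.8 in TOV21G controls. IFNLR1, the specific chain of the type III interferon receptor, was 267.8 to 339.5 in CAOV3 and 10.48 to 13.01 in TOV21G. CGAS, the sensor of cytosolic DNA, was 426.7 to 483 in CAOV3 and 0 to 1.794 in TOV21G. GBP2, a guanylate-binding protein that interferon gamma induces, was 686.3 to 841.2 in CAOV3 and 0 to 0.8972 in TOV21G. The lower JAK1, IFNLR1, CGAS and GBP2 in TOV21G thus stood beside higher levels of most interferon-stimulated genes there. Most genes of their own lists also went the other way. Of the 9 receptors and kinases, 7 were called higher in TOV21G and 2 lower. Of the 9 nucleic acid sensing genes, 7 were likewise called higher and 2 lower.

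Of 7 interferon ligands, IFNE, a type I interferon of the reproductive tract, was the 1 among the listed genes. Its gene model overlaps MIR31HG on the same strand, so reads counted for IFNE could belong to either gene. IFNE was 30.69 to 45.95 over the 6 CAOV3 libraries. In TOV21G it was 24.93, 123.7 and 57.42 in controls and 131.7, 54.87 and 236.2 with ascites, so the groups overlapped and the difference was not called (log2 1.07, SE 0.52, limma adjusted p = 0.569).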
